A study of Mus musculus with 12 samples.

Results

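The solute carrier (Slc) genes are the group of membrane transporters described here across 4 kinds of mouse male germ cell. In order of development these were spermatogonia of type A, spermatogonia of type B, spermatocytes at the pachytene stage of meiosis, and the haploid round spermatids. Members were chosen by name: a probe set belonged when the platform annotation gave it exactly 1 gene symbol made of Slc, a family number, the letter a and a member number. This rule found 485 of 29131 probe sets with 1 symbol, 175 on U74Av2, 197 on U74Bv2 and 113 on U74Cv2, and they stood for 284 of 15964 named genes. A further 5 probe sets with several symbols were left out, and carriers whose names have another letter in that place, such as Slc35b members, were not taken in. The name also caught 5 genes that are not transporters, namely the scaffold genes Slc9a3r1 and Slc9a3r2, Slc4a1ap, Slc7a6os and the pseudogene Slc2a4rg-ps, which leaves 279 transporters. Each cell type gave total RNA for 1 Affymetrix array of each of 3 designs, 12 arrays in all, after one-cycle labelling. The labels give no strain, age, isolation method or treatment for any group, and they do not say whether the 3 designs received the same RNA or from how many animals it came. With 1 array per cell type and design there is no replicate error and no test, and precision is limited by how few arrays there are.

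Solute carriers move sugars, amino acids, ions, vitamins and nucleotides across membranes, driven by gradients rather than directly by ATP. Most lie in the plasma membrane, while the Slc25 family lies mainly in the inner mitochondrial membrane, where Slc25a4 and Slc25a5 encode the exchangers of ADP and ATP. In the testis, spermatogonia lie outside the barrier formed by Sertoli cells, and pachytene spermatocytes and round spermatids lie inside it. Cells inside the barrier are known to take up lactate and pyruvate supplied by Sertoli cells. Carriers are grouped below by the substance their family is known to move.

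Values are scaled signals in arbitrary units, and a floor near 50.01 units was set on each design, below which a signal was treated as not told from background. A gene was represented by its probe set with the highest mean signal, and 221 of the 284 Slc genes (77.8%) exceeded the floor in at least 1 cell type, as did 13003 of the 15964 named genes (81.5%). The other 63 Slc genes were under the floor in all 4 cell types. Where 1 side of a ratio was under the floor the fold is a lower bound, marked by the words at least. A gene is counted as higher or lower at a ratio of at least 2-fold between neighbouring cell types, the later over the earlier. Control probe sets present on each of the 3 designs give a technical spread of the log2 ratio: the SD between designs was 0.26 at the type B step (30 probe sets), 0.23 at the pachytene step (31) and 0.44 at the round spermatid step (29). It is not known to hold error between cell preparations, since the labels do not say whether the 3 designs received the same RNA. Negative controls exceeded the floor in 22 of 228 readings and reached 103.5 units. Each gene counted as higher or lower had its higher signal over the highest negative control of its array.

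The cell types were checked against markers. Summed signals of the 4 measured pachytene markers were 262 in type A, 131 in type B, 22576 in pachytene cells and 20064 in round spermatids, and those of 5 round spermatid markers 162, 198, 2171 and 27949 in the same order. The 6 fibroblast and matrix genes summed to 4810.4 in type A, 11320 in type B, 127 in pachytene cells and 369.9 in round spermatids. The 5 measured myoid markers summed to 2460.0, 3615, 475 and 345 in that order, and the 5 measured Sertoli cell markers to 1664, 1082, 470.1 and 141. The 5 measured macrophage markers summed to 329, 595, 143 and 214. The sums of these other testis cells were thus highest in the type A or type B arrays. The 5 Leydig cell markers differed, at 393 in type A, 681 in type B, 663 in pachytene cells and 182 in round spermatids. The 5 markers of undifferentiated spermatogonia summed to 1322 in type A, 1221 in type B, 406 in pachytene cells and 842 in round spermatids. Between the spermatogonial types members lay on both sides: Zbtb16 and Gfra1 were 2.50-fold lower and 2.20-fold lower in type B, and Sall4 was 2.61-fold higher. The 4 markers of differentiating spermatogonia summed to 2386 in type A, 1562 in type B, 2495 in pachytene cells and 3855 in round spermatids. Between type A and type B 0 of them reached 2-fold either way. Dmrtb1 read 209 in type B, 2376 in pachytene cells and 3559 in round spermatids, so this list was not highest in the spermatogonia. The other 3 were at least 2-fold lower in pachytene cells than in type B. Of the fibroblast and matrix genes, 6 of 6 were over the floor in both spermatogonial types, 1 of 6 in pachytene cells and 1 of 6 in round spermatids. These sums move with the steps described below, and their part in the Slc ratios was not tested. In such bulk samples fewer cells of a type and less RNA per cell cannot be told apart.

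The carriers that stood most above the next cell type in round spermatids, Slc22a14 and Slc36a3, and the ADP/ATP carriers Slc25a4 and Slc25a5 are shown with the 300 bases around their start (250 before, 50 after), from RefSeq on build GRCm38.p6. Capitals mark 2 motifs read on either strand, the GC box with the letters GGGCGG and also the box spelled CCAAT, so that a GC box on the reverse strand appears as the letters of its complement.
Slc22a14 at chr9:119190346-119190645, minus strand
Slc22a14: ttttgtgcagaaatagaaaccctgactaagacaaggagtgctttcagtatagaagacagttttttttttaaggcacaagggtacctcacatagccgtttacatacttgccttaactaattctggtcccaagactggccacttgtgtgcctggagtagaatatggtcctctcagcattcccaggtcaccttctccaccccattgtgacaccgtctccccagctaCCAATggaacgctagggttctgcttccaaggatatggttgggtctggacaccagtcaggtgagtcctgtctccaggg
Slc36a3 at chr11:55151659-55151958, minus strand
Slc36a3: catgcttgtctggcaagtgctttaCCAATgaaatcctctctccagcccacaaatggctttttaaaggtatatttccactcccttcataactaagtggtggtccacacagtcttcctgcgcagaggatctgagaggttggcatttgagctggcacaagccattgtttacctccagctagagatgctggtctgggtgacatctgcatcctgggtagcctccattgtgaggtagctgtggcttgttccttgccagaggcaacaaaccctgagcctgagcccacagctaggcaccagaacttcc
Slc25a4 at chr8:46211013-46211312, minus strand
Slc25a4: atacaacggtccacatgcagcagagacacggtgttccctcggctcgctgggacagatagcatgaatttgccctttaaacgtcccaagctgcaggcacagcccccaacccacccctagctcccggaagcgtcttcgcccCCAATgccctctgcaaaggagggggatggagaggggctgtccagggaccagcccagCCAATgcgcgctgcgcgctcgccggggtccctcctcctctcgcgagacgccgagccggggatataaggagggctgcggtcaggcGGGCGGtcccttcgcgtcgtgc
Slc25a5 at chrX:36795347-36795646, plus strand
Slc25a5: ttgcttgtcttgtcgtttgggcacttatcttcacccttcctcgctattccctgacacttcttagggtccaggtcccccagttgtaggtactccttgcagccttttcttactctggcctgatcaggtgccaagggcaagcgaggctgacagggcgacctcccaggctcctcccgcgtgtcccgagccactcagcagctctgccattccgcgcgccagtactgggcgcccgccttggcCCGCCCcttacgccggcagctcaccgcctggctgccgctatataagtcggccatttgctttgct
The windows of Slc22a14 and Slc36a3 had 48.3% and 51.0% G or C bases, 1 CCAAT each and no GC box. Those of Slc25a4 and Slc25a5 had 65.7% and 61.0% G or C bases and 1 GC box each, on the forward strand in Slc25a4 and on the reverse in Slc25a5, and Slc25a4 further held 2 CCAAT. None of the 4 windows held TATAAA, the cyclic AMP response element TGACGTCA or its core TGACG, which the full element contains, on either strand. Among all 32851 promoters of the table, 35.7% held a GC box, 37.4% CCAAT, 13.6% TATAAA, 1.79% TGACGTCA and 20.8% TGACG. Of the 221 measured Slc genes 169 matched a promoter, and 65.7% of these held a GC box and 37.3% CCAAT, against 61.0% and 38.9% of the 10404 measured genes of all kinds with a promoter. These matches describe letters in a window and no binding site.

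Few carriers differed between the spermatogonial types. In type B spermatogonia 7 of the 221 measured Slc genes reached 2-fold higher than in type A (3.17%, against 3.60% of all measured genes) and 12 reached 2-fold lower (5.43%, against 3.62%), and none reached 4-fold in either direction, where 0.154% of all measured genes were higher and 0.162% lower. The median log2 ratio was 0.01 over the Slc genes and 0.00 over all genes. Of the 19 ratios, 9 were bounds, and Slc12a7 alone stayed at least 2-fold under every alternative processing tried. The counts of higher and lower genes were 4 and 13 with arrays scaled to a common median, 10 and 10 with quantile normalization, and 0 and 61 with scaling to the bacterial spike-in controls. With spike-in scaling the median log2 ratio of all genes was -0.69.

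More carriers differed at the pachytene step than at the other steps, except with spike-in scaling. With that scaling 61 differed at the type B step and 55 here. At the spermatid step 25 were then higher and 31 lower, also more in all than here. In pachytene cells 27 Slc genes were at least 2-fold higher than in type B spermatogonia (12.2%, against 16.2% of all measured genes) and 46 were at least 2-fold lower (20.8%, against 21.9%). At 4-fold, 13 Slc genes were higher and 9 lower (5.88% and 4.07%, against 7.46% and 5.14% of all genes). The median log2 ratio was -0.31 over the Slc genes and -0.21 over all genes. Under other scalings the split between higher and lower turned: 38 and 15 with a common median, 43 and 12 with spike-in scaling, and 30 and 29 with quantile normalization. The median of all genes was then 0.10, 0.20 and -0.04. Of the genes counted, 16 of the 27 higher genes and 7 of the 46 lower genes stayed at least 2-fold under every alternative.

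In round spermatids 21 Slc genes were at least 2-fold higher than in pachytene cells (9.50%, against 9.07% of all measured genes) and 24 were at least 2-fold lower (10.9%, against 11.8%). At 4-fold, 5 were higher and 1 was lower (2.26% and 0.45%, against 3.84% and 1.96% of all genes). The median log2 ratio was 0.00 over the Slc genes and 0.00 over all genes. At 2-fold the shares of Slc genes stood on both sides of those of all genes, and at 4-fold each lay below. No test was possible, so nothing is read from the carriers as a group, and the values of families and single genes follow.

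**Figure D1:**
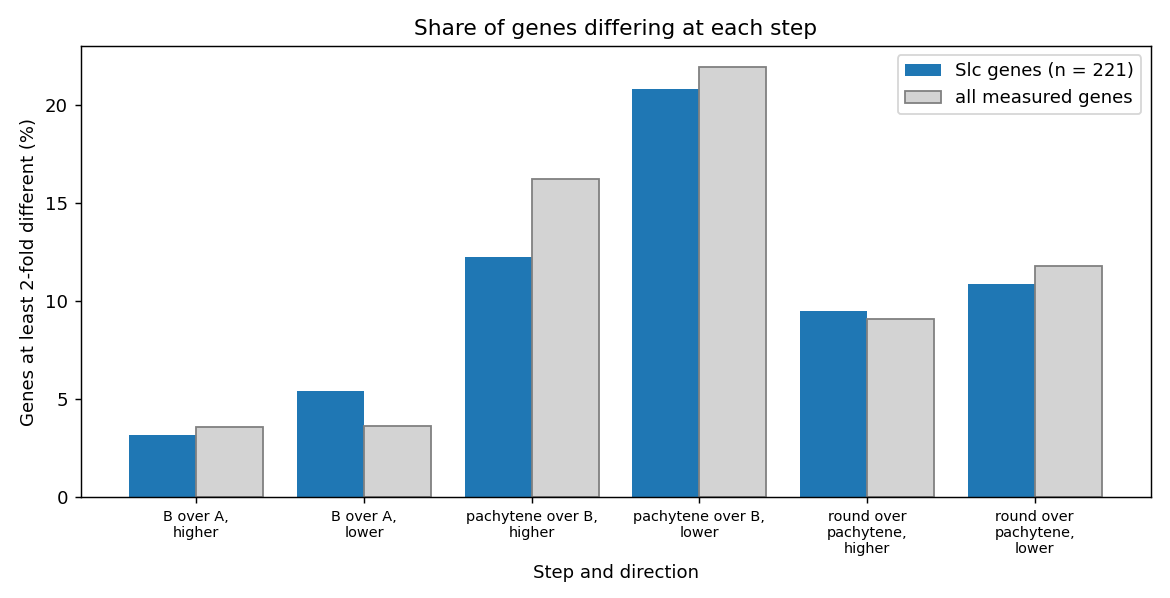
Percent of measured genes at least 2-fold higher or lower at each step between neighbouring cell types, for the 221 measured Slc genes (blue) and for all 13003 measured genes (grey). The Slc bar is the taller for type B over type A, lower (5.43% against 3.62%), and the shorter for pachytene over type B, higher (12.2% against 16.2%), while the bars for round over pachytene, higher, are close (9.50% against 9.07%).

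Over the 4 cell types together, 43 Slc genes spanned at least 4-fold between their lowest and highest cell type (19.5%, against 25.9% of all measured genes), and 91 spanned less than 2-fold (41.2%, against 37.2%). The median span was 2.17-fold for Slc genes and 2.42-fold for all genes. By their main probe sets some genes stood out in a single cell type, exceeding the others by 2-fold or more: 4 Slc genes in type A (1.81%, against 1.75% of all genes), 3 in type B (1.36%, against 1.38%), 6 in pachytene cells (2.71%, against 3.72%) and 12 in round spermatids (5.43%, against 5.81%). Those of type A were Slc45a1, Slc7a2, Slc12a7 and Slc25a37, and those of type B Slc22a15, Slc39a5 and Slc17a1. The 6 of pachytene cells were Slc2a3, Slc13a5, Slc15a4, Slc12a5, Slc25a20 and Slc39a6. The 12 of round spermatids were Slc22a14, Slc36a3, Slc25a46, Slc16a7, Slc35a5, Slc25a33, Slc39a10, Slc25a47, Slc66a2, Slc25a41, Slc38a9 and Slc12a8.

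**Figure D2:**
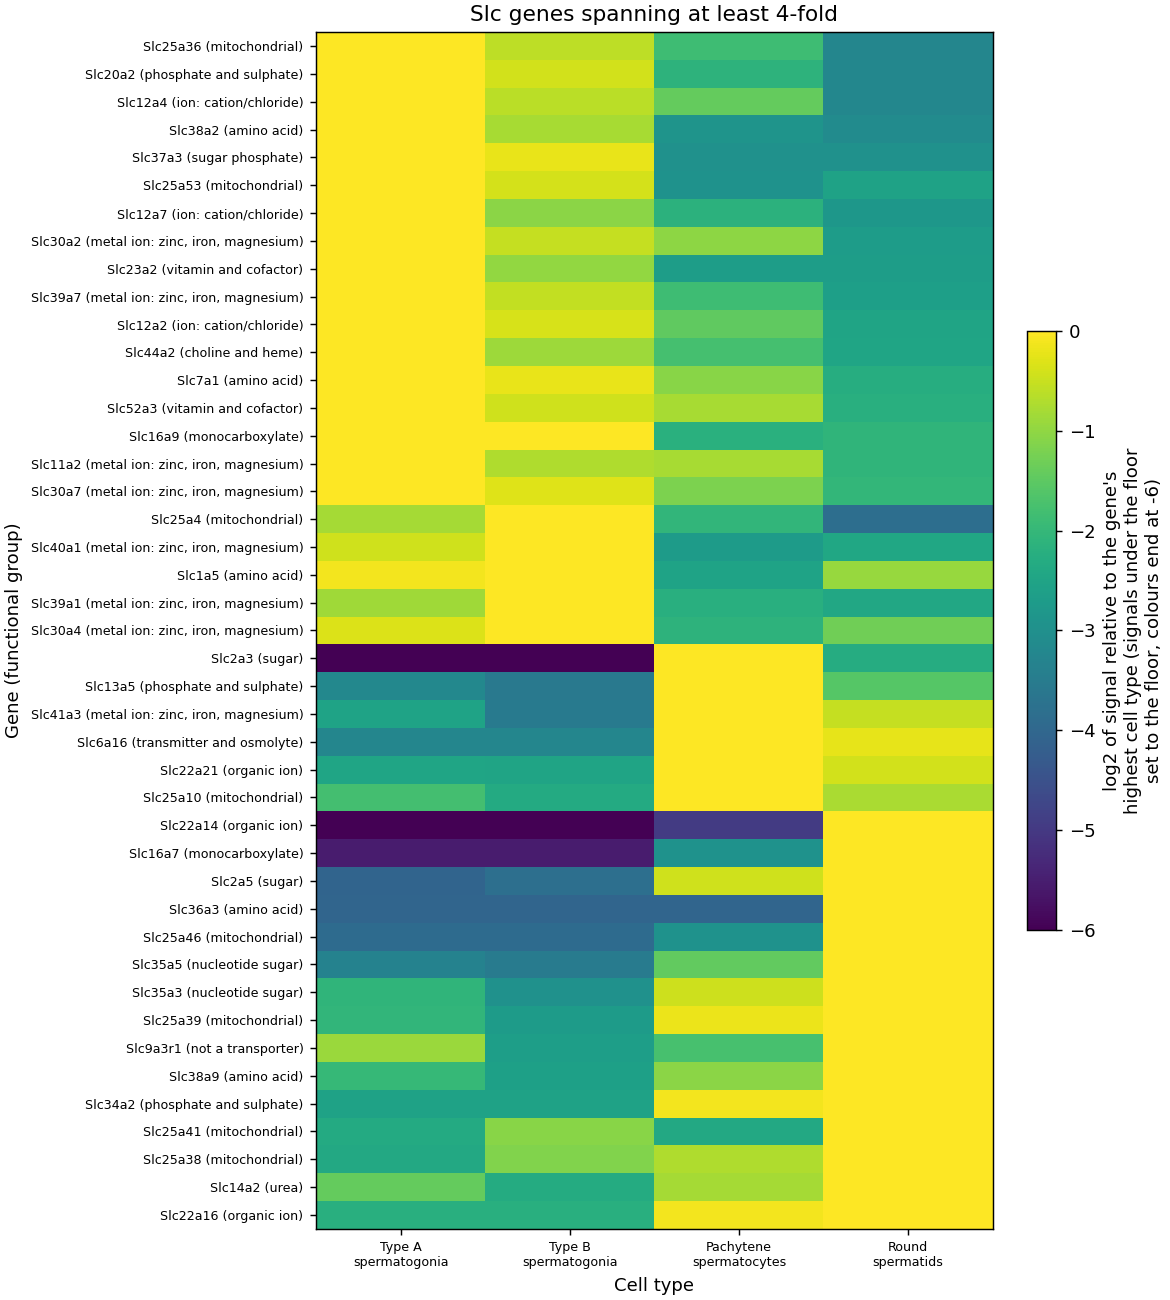
Signal of the 43 Slc genes that spanned at least 4-fold, in rows with their functional group, in the 4 cell types; the colour gives the log2 of the signal relative to the cell type where that gene is highest, with signals under the floor set to the floor and colours ending at -6. Slc2a3 is dark in both spermatogonial types and brightest in pachytene cells, and a block from Slc22a14 down to Slc22a16 is brightest in round spermatids.

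Among the sugar carriers, Slc2a3 read far higher in pachytene cells than in either kind of spermatogonia. Slc2a3 encodes a glucose transporter of high affinity, best known from neurons, and lies on chromosome 6. Its main probe set, on U74Av2, read 59.3 in type A, 69.8 in type B, 5344 in pachytene cells and 1100.0 in round spermatids. Pachytene cells were thus 76.6-fold higher than type B, and round spermatids 4.86-fold lower than pachytene cells. A second U74Av2 probe set read 37.2 in type A, 13.6 in type B, 2443 in pachytene cells and 490.0 in round spermatids, and a U74Cv2 probe set read 81.4 in type A, 101 in type B, 2883 in pachytene cells and 475 in round spermatids. On these 2, pachytene cells were at least 48.8-fold higher and 28.5-fold higher than type B, and round spermatids 4.99-fold lower and 6.07-fold lower than pachytene cells. The type B signal of the U74Cv2 probe set was below the highest negative control of its array, at 103.5, so the size of that pachytene ratio is uncertain. The fourth probe set was under the floor in all 4 cell types, at 34.3 in type A, 38.1 in type B, 29.5 in pachytene cells and 23.1 in round spermatids. The 3 probe sets over the floor gave the same order, lowest in the spermatogonia, highest in pachytene cells and between these in round spermatids. Both Slc2a3 ratios stayed at least 2-fold in all 9 alternatives, between 5.74 and 6.99 on the log2 scale at the pachytene step and between -2.58 and -2.27 at the spermatid step.

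**Figure D3:**
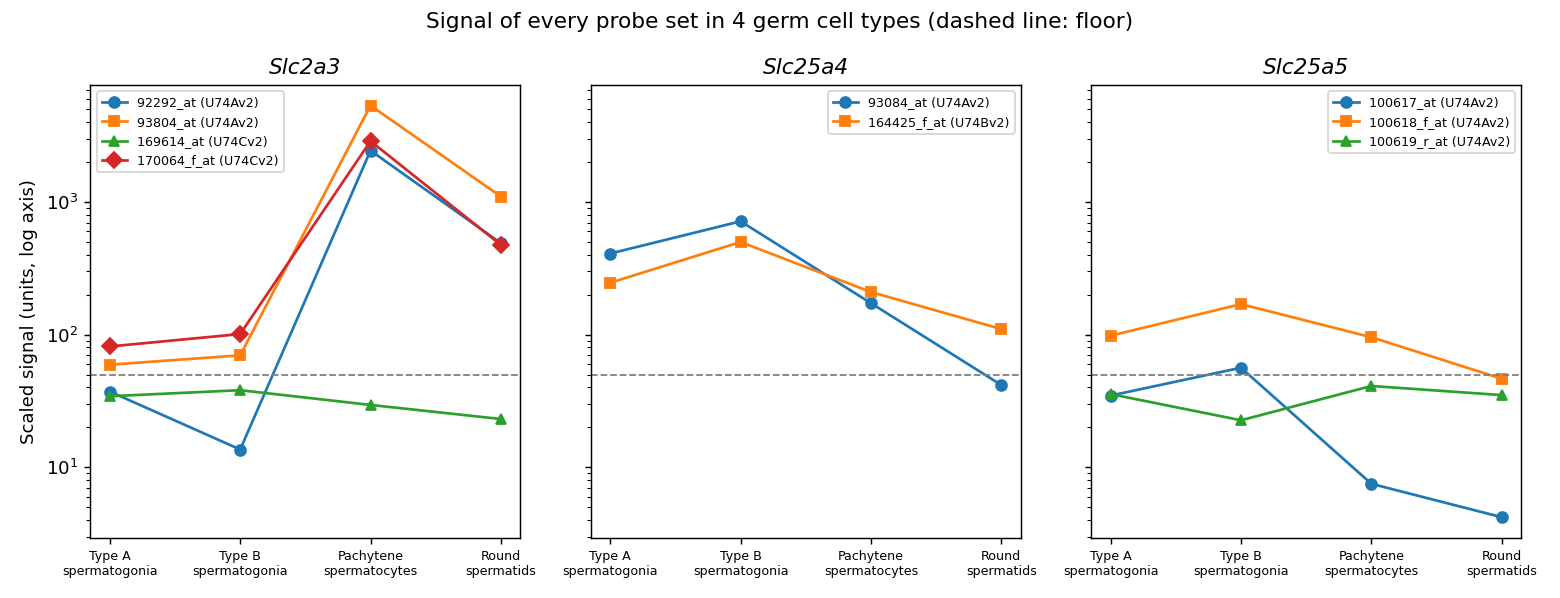
Scaled signal (log axis, arbitrary units) of every probe set of Slc2a3, Slc25a4 and Slc25a5 in the 4 cell types; each line is 1 probe set on 1 array per cell type and the dashed line is the floor. Of the 4 Slc2a3 probe sets 3 peak in pachytene cells, while both Slc25a4 probe sets and the highest-reading one of Slc25a5 are highest in type B and lowest in round spermatids.

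Other members of the Slc2a family differed among themselves. Of 11 on the arrays 8 were measured. In pachytene cells 3 of these, Slc2a3, Slc2a5 and Slc2a8, were at least 2-fold higher than in type B and 1 was lower. The shares over all measured genes there were 16.2% and 21.9%. Slc2a5, a fructose carrier, read 6.90 in type A, 60.6 in type B, 627 in pachytene cells and 844 in round spermatids and was 10.3-fold higher in pachytene cells. A U74Cv2 probe set instead read 73.8 in type A, 142 in type B, 64.4 in pachytene cells and 64.3 in round spermatids, lower in pachytene cells, so the probe sets of this gene disagree at that step. Slc2a8, an intracellular hexose carrier known from testis, read 147 in type A, 169 in type B, 374 in pachytene cells and 365 in round spermatids and was 2.22-fold higher in pachytene cells, under 2-fold in 1 of 9 alternatives. Slc2a9, a urate carrier, was 2.04-fold lower there and came under 2-fold in 4 of 8 alternatives. The widely expressed glucose transporter Slc2a1 read 61 in type A, 36.7 in type B, 9.50 in pachytene cells and 9.20 in round spermatids, over the floor in type A alone. Slc2a12 likewise read 71.8 in type A and was under the floor elsewhere. Slc2a13, a carrier of myo-inositol, read 21.8 in type A, 54.5 in type B, 67.5 in pachytene cells and 77.4 in round spermatids. Slc2a10 read 251 in type A, 246 in type B, 202 in pachytene cells and 155 in round spermatids, with no 2-fold step in either. Slc2a2, Slc2a4, known as the insulin-responsive glucose transporter, and Slc2a6 stayed under the floor in each cell type.

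The sugar group as a whole held 16 measured genes of 21 on the arrays, of which 0 were at least 2-fold higher and 2 lower in type B than in type A, 4 higher and 3 lower in pachytene cells than in type B, and 0 higher and 2 lower in round spermatids than in pachytene cells. Of all measured genes 3.60% were higher and 3.62% lower at the type B step, 16.2% and 21.9% at the pachytene step, and 9.07% and 11.8% at the spermatid step. Slc45a1, of a family of proton-coupled sugar carriers, was at least 3.28-fold lower in type B, with 46.7 there and 164 in type A. Slc5a9, a sodium-dependent mannose carrier, was low in type B alone, reading 119.5 in type A, 26.6 in type B, 116 in pachytene cells and 82.9 in round spermatids. Slc50a1, a sugar efflux carrier, was at least 2.88-fold lower in pachytene cells, where it read 17.6 against 144 in type B. Slc45a4 was 2.02-fold lower in round spermatids, at 224 against 454 in pachytene cells. Of its other probe sets 1 was 2.71-fold lower there, and another read 37.8 in type A, 283 in type B, 42.2 in pachytene cells and 64.6 in round spermatids, at least 1.29-fold higher in round spermatids. Of the related sugar phosphate exchangers, Slc37a3 had the largest bound among genes lower in pachytene cells: it read 389.6 in type A, 342 in type B, 36.3 in pachytene cells and 43.5 in round spermatids and was at least 6.83-fold lower in pachytene cells, at least 2-fold in every alternative.

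The Slc16 family, which includes carriers of lactate and pyruvate, had 1 member that was several fold higher at each of the later steps. Slc16a7, the monocarboxylate transporter MCT2 with high affinity for pyruvate and lactate, lies on chromosome 10 and read 2.10 in type A, 3.20 in type B, 303 in pachytene cells and 2334 in round spermatids. It was at least 6.05-fold higher in pachytene cells than in type B and 7.71-fold higher in round spermatids than in pachytene cells, both kept in all 9 alternatives. Its other probe set was under the floor in every cell type. Slc16a1, encoding the widespread MCT1, read 53.4 in type A, 20.5 in type B, 18.5 in pachytene cells and 5.50 in round spermatids, and Slc16a3, encoding MCT4, known as a lactate exporter, read 226 in type A, 234 in type B, 143 in pachytene cells and 184 in round spermatids with no 2-fold step. Slc16a9 was at least 4.58-fold lower in pachytene cells, read from a probe set whose ending marks possible cross-hybridisation, and its other probe set lay under the floor throughout. Slc16a11 was 2.29-fold lower in pachytene cells. At that step 1 of 9 measured members was higher and 2 were lower (16.2% and 21.9% of all measured genes were). The gene Bsg, whose protein brings MCT1 and MCT4 to the membrane, read 901 in type A, 1147 in type B, 2022 in pachytene cells and 2120.2 in round spermatids, and Emb, the partner of MCT2, read 148 in type A, 181 in type B, 152 in pachytene cells and 188 in round spermatids; neither stepped by 2-fold.

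Of the ADP/ATP carriers, Slc25a4 was lower in each later cell type after type B. Slc25a4, on chromosome 8, encodes the isoform typical of heart and muscle. On U74Av2 it read 409 in type A, 715 in type B, 173 in pachytene cells and 41.7 in round spermatids. This put type B 1.75-fold higher than type A, pachytene cells 4.14-fold lower than type B, and round spermatids at least 3.45-fold lower than pachytene cells. On U74Bv2 it read 246 in type A, 499.6 in type B, 209.6 in pachytene cells and 110.2 in round spermatids, 2.03-fold higher in type B, 2.38-fold lower in pachytene cells and 1.90-fold lower in round spermatids. Both probe sets were highest in type B and lowest in round spermatids, and they lay on either side of 2-fold at the first and last steps. The spike-in controls were themselves 1.76-fold higher in type B than in type A, close to the type B step of this gene. Under the alternatives the pachytene ratio kept at least 2-fold in 9 of 9 and the spermatid ratio in 8 of 9.

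Slc25a5, on chromosome X, encodes the isoform typical of dividing cells. Its highest-reading probe set, on U74Av2, read 98.2 in type A, 169.8 in type B, 95.6 in pachytene cells and 46.5 in round spermatids. Type B was 1.73-fold higher than type A, pachytene cells 1.78-fold lower than type B, and round spermatids at least 1.91-fold lower than pachytene cells, so no step reached 2-fold. Its ending marks possible cross-hybridisation within a gene family. The spike-in controls moved by similar amounts, 1.76-fold in type B over type A and 0.61-fold in pachytene cells over type B. The type B and pachytene steps of Slc25a5 thus depend on how the arrays are scaled. A second probe set was over the floor in type B alone, at 34.7 in type A, 56.3 in type B, 7.50 in pachytene cells and 4.20 in round spermatids, and the remaining probe set was under the floor in all 4 cell types, at 35.6 in type A, 22.6 in type B, 41 in pachytene cells and 35 in round spermatids. The third ADP/ATP carrier gene, Slc25a31, known from mouse as the isoform of meiotic germ cells, had no probe set named for it and was not analysed here.

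The Slc25 family is the largest group, with 36 measured genes of 40 on the arrays. In type B 2 were at least 2-fold higher and 3 lower than in type A (3.60% and 3.62% of all measured genes were). In pachytene cells 4 were higher and 7 lower than in type B (16.2% and 21.9% of all measured genes were), with a median log2 ratio of -0.37 against -0.21 over all genes. It was 0.00 with a common median, 0.02 with spike-in scaling and -0.18 with quantile normalization, against 0.10, 0.20 and -0.04 over all genes. In round spermatids 6 were higher and 5 lower than in pachytene cells (9.07% and 11.8% of all measured genes were). Standing 2-fold or more over every other cell type were 4 members in round spermatids, 1 in pachytene cells and 1 in type A.

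Several mitochondrial carriers were higher in pachytene cells than in type B. Slc25a39, which is known to bring glutathione into mitochondria, read 830.2 in type A, 534 in type B, 3079 in pachytene cells and 3466 in round spermatids. Pachytene cells were 5.76-fold higher than type B, and the level of round spermatids was 1.13-fold higher still. Slc25a10, the dicarboxylate carrier, read 81.1 in type A, 56.5 in type B, 283 in pachytene cells and 167 in round spermatids and was 5.005-fold higher in pachytene cells, while its U74Bv2 probe set stayed near the floor. Slc25a20, the carrier of acylcarnitines into mitochondria for fatty acid oxidation, read 102 in type A, 129.7 in type B, 311 in pachytene cells and 138 in round spermatids, 2.40-fold higher in pachytene cells and 2.25-fold lower in round spermatids. It was thus high in pachytene cells alone.

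Others were highest in round spermatids. Slc25a46, which lies in the outer mitochondrial membrane and acts in mitochondrial shape, read 72.9 in type A, 73.1 in type B, 142 in pachytene cells and 1094 in round spermatids and was 7.72-fold higher in round spermatids. A second probe set read 118 in type A, 91.6 in type B, 105 in pachytene cells and 190.3 in round spermatids, 1.80-fold higher in round spermatids. Slc25a41, of the family of ATP-magnesium and phosphate exchangers, read 64.4 in type A, 156 in type B, 62.1 in pachytene cells and 324 in round spermatids; it was 2.42-fold higher in type B, 2.51-fold lower in pachytene cells and 5.22-fold higher in round spermatids, so 2 cell types that are not neighbours were high. Its relative Slc25a25 read 369.9 in type A, 489 in type B, 338 in pachytene cells and 732 in round spermatids and was 2.17-fold higher in round spermatids. Slc25a33, a carrier of pyrimidine nucleotides, read 447 in type A, 498 in type B, 618 in pachytene cells and 1503 in round spermatids and was 2.43-fold higher there, whereas its U74Cv2 probe set read 68.5 in type A, 208 in type B, 91.7 in pachytene cells and 73.5 in round spermatids and was highest in type B. Slc25a47, a family member best known from liver, was over the floor in round spermatids alone and at least 2.15-fold higher there. Slc25a38, a carrier of glycine for heme synthesis, read 41.3 in type A, 118 in type B, 156 in pachytene cells and 259 in round spermatids, and was at least 2.36-fold higher in type B.

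A further set was lower in at least 1 cell type than in the one before it. Slc25a36, a second carrier of pyrimidine nucleotides, read 657 in type A, 434 in type B, 179 in pachytene cells and 69.3 in round spermatids, which was 2.42-fold lower in pachytene cells and 2.59-fold lower in round spermatids. Its U74Bv2 probe set did not share the spermatid step, reading 107 in type A, 117 in type B, 66.4 in pachytene cells and 68.4 in round spermatids. Slc25a16 read 162 in type A, 152 in type B, 151 in pachytene cells and 32.1 in round spermatids and was at least 3.02-fold lower in round spermatids alone. Slc25a21, the oxodicarboxylate carrier, was 2.41-fold lower there, at 65.1 against 157 in pachytene cells. Slc25a42, an exchanger of coenzyme A, read 279.8 in type A, 402 in type B, 136 in pachytene cells and 283 in round spermatids and was low in pachytene cells alone, 2.96-fold lower there and 2.09-fold higher in round spermatids. Slc25a53, on chromosome X, was 5.85-fold lower in pachytene cells on a probe set whose ending marks possible cross-hybridisation, and its other 3 probe sets stayed near or under the floor. Slc25a12, the exchanger of aspartate for glutamate, read 601 in type A, 522 in type B, 369.6 in pachytene cells and 197 in round spermatids with no 2-fold step. At the type B step Slc25a29, a carrier of basic amino acids, Slc25a40, a relative of Slc25a39, and Slc25a37, which brings iron into mitochondria, were at least 2.63-fold lower, at least 2.14-fold lower and at least 2.05-fold lower. In these 3 the type B signal was under the floor. Slc25a40 was higher again in pachytene cells than in type B, with a log2 ratio of at least 1.105. That ratio stayed at least 2-fold in 7 of 8 alternatives.

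Carriers of amino acids had 29 measured genes of 37 on the arrays. In type B 1 was at least 2-fold higher and 1 lower than in type A, in pachytene cells 1 was higher and 6 were lower than in type B, and in round spermatids 3 were higher and 3 lower than in pachytene cells. Of all measured genes 3.60% were higher and 3.62% lower at the type B step. The shares were 16.2% and 21.9% at the pachytene step and 9.07% and 11.8% at the spermatid step. The median log2 ratio at the pachytene step was -0.36, against -0.21 over all genes. It was 0.00 with a common median and with spike-in scaling, against 0.10 and 0.20 over all genes.

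Slc1a5, a sodium-dependent exchanger of neutral amino acids including glutamine, had the highest signals of its main probe set in the spermatogonia. It read 1659.9 in type A, 1789 in type B, 310.1 in pachytene cells and 941 in round spermatids, so that pachytene cells were 5.77-fold lower than type B and round spermatids 3.03-fold higher than pachytene cells. A second U74Cv2 probe set read 299 in type A, 331 in type B, 136 in pachytene cells and 96.8 in round spermatids and did not share the spermatid step. Both endings mark possible cross-hybridisation, and the U74Av2 probe set stayed near or under the floor. Slc38a2, which takes up small neutral amino acids with sodium, read 1638 in type A, 943 in type B, 219.6 in pachytene cells and 189.9 in round spermatids and was 4.29-fold lower in pachytene cells. A U74Av2 probe set was 4.95-fold lower and a U74Bv2 one 2.08-fold lower there. At that step 3 of the 4 probe sets of Slc38a2 over the floor, on 3 designs, were thus at least 2-fold lower.

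The 2 chains of the large neutral amino acid exchanger were lowest in round spermatids. The heavy chain gene Slc3a2 read 1246 in type A, 1141 in type B, 807 in pachytene cells and 316 in round spermatids and was 2.55-fold lower in round spermatids than in pachytene cells, and the light chain gene Slc7a5 read 1105 in type A, 708 in type B, 724 in pachytene cells and 339.6 in round spermatids and was 2.13-fold lower. Among the carriers of cationic amino acids, Slc7a1 read 247 in type A, 217 in type B, 118 in pachytene cells and 51.5 in round spermatids and was 2.29-fold lower in round spermatids. The main probe set of Slc7a2 was over the floor in type A, at 126, and at least 2.52-fold lower in type B, but its U74Av2 probe set read 32.7 in type A, 66.2 in type B, 55.2 in pachytene cells and 42.7 in round spermatids. Slc7a3, on chromosome X, read 226 in type A, 476 in type B, 361 in pachytene cells and 449 in round spermatids and was 2.11-fold higher in type B. Slc7a1 was thus highest in type A and Slc7a3 in type B, while the probe sets of Slc7a2 disagree.

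Slc36a3 was over the floor in round spermatids alone. It belongs to the family of proton-coupled amino acid carriers, lies on chromosome 11 and read 30.3 in type A, 31.4 in type B, 41 in pachytene cells and 829 in round spermatids, at least 16.6-fold higher in round spermatids and at least 2-fold in all 8 alternatives. Its relatives Slc36a1 and Slc36a4 were lowest in round spermatids, the first reading 395 in type A, 279 in type B, 206 in pachytene cells and 114 in round spermatids and the second 106 in type A, 121 in type B, 57.4 in pachytene cells and 47.7 in round spermatids. Slc36a4 was 2.12-fold lower in pachytene cells, under 2-fold in 4 of 8 alternatives. Slc38a9, which senses arginine at the lysosome, was 2.93-fold higher in pachytene cells and 2.05-fold higher in round spermatids on its main probe set, whose ending marks possible cross-hybridisation, but another probe set read 232 in type A, 93.1 in type B, 93 in pachytene cells and 35 in round spermatids. Slc38a5, on chromosome X, was 2.40-fold lower in pachytene cells, and Slc1a4, a neutral amino acid carrier, at least 2.38-fold lower.

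The ion carriers of the plasma membrane had 22 measured genes of 33 on the arrays. In type B 0 were at least 2-fold higher and 2 lower than in type A, in pachytene cells 3 were higher and 5 lower than in type B, and in round spermatids 2 were higher and 6 lower than in pachytene cells. The shares over all measured genes were 3.60% higher and 3.62% lower at the type B step. They were 16.2% and 21.9% at the pachytene step and 9.07% and 11.8% at the spermatid step. The median log2 ratio at the spermatid step was -0.33 (0.00 over all genes) and stayed between -0.44 and -0.35 under the 3 other scalings.

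The cation and chloride cotransporters of the Slc12 family accounted for 4 of the 6 ion carriers lower in round spermatids. Of 6 measured genes 4 were at least 2-fold lower and 1 was higher (11.8% and 9.07% of all measured genes were), with a median log2 ratio of -1.31, and under the other scalings 3 or 4 were lower with medians from -1.30 to -1.14. Slc12a4, a potassium and chloride cotransporter that acts in cell volume, read 531 in type A, 343 in type B, 199.6 in pachytene cells and 57.1 in round spermatids, 3.50-fold lower in round spermatids on a probe set whose ending marks possible cross-hybridisation; its U74Av2 probe set was under the floor in both cell types of that step. Slc12a2, which brings sodium, potassium and chloride into cells, lies on chromosome 18 and read 441 in type A, 341 in type B, 160.5 in pachytene cells and 78.2 in round spermatids; it was 2.12-fold lower in pachytene cells and 2.05-fold lower in round spermatids. Slc12a7, a relative of Slc12a4, read 357 in type A, 174 in type B, 80.9 in pachytene cells and 43.3 in round spermatids and was 2.06-fold lower in type B and 2.15-fold lower in pachytene cells. Its U74Bv2 probe set read 75.4 in type A, 66.4 in type B, 39.7 in pachytene cells and 101 in round spermatids and was at least 2.02-fold higher in round spermatids. The signals of the main probe sets of these 3 ran downward from type A to round spermatids, but with a common median or spike-in scaling 0 of the 6 were 2-fold lower in pachytene cells.

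Slc12a3 and Slc12a5 were highest in pachytene cells instead. Slc12a3, the thiazide-sensitive cotransporter known from kidney, read 241 in type A, 305 in type B, 551 in pachytene cells and 162 in round spermatids and was 3.40-fold lower in round spermatids. Slc12a5, the potassium and chloride cotransporter known from neurons, read 129.6 in type A, 144 in type B, 387 in pachytene cells and 129 in round spermatids; it was 2.70-fold higher in pachytene cells and 2.99-fold lower in round spermatids, while its U74Av2 probe set stayed near or under the floor. Slc12a8 was over the floor in round spermatids alone and at least 2.05-fold higher there, at 102.

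**Figure D4:**
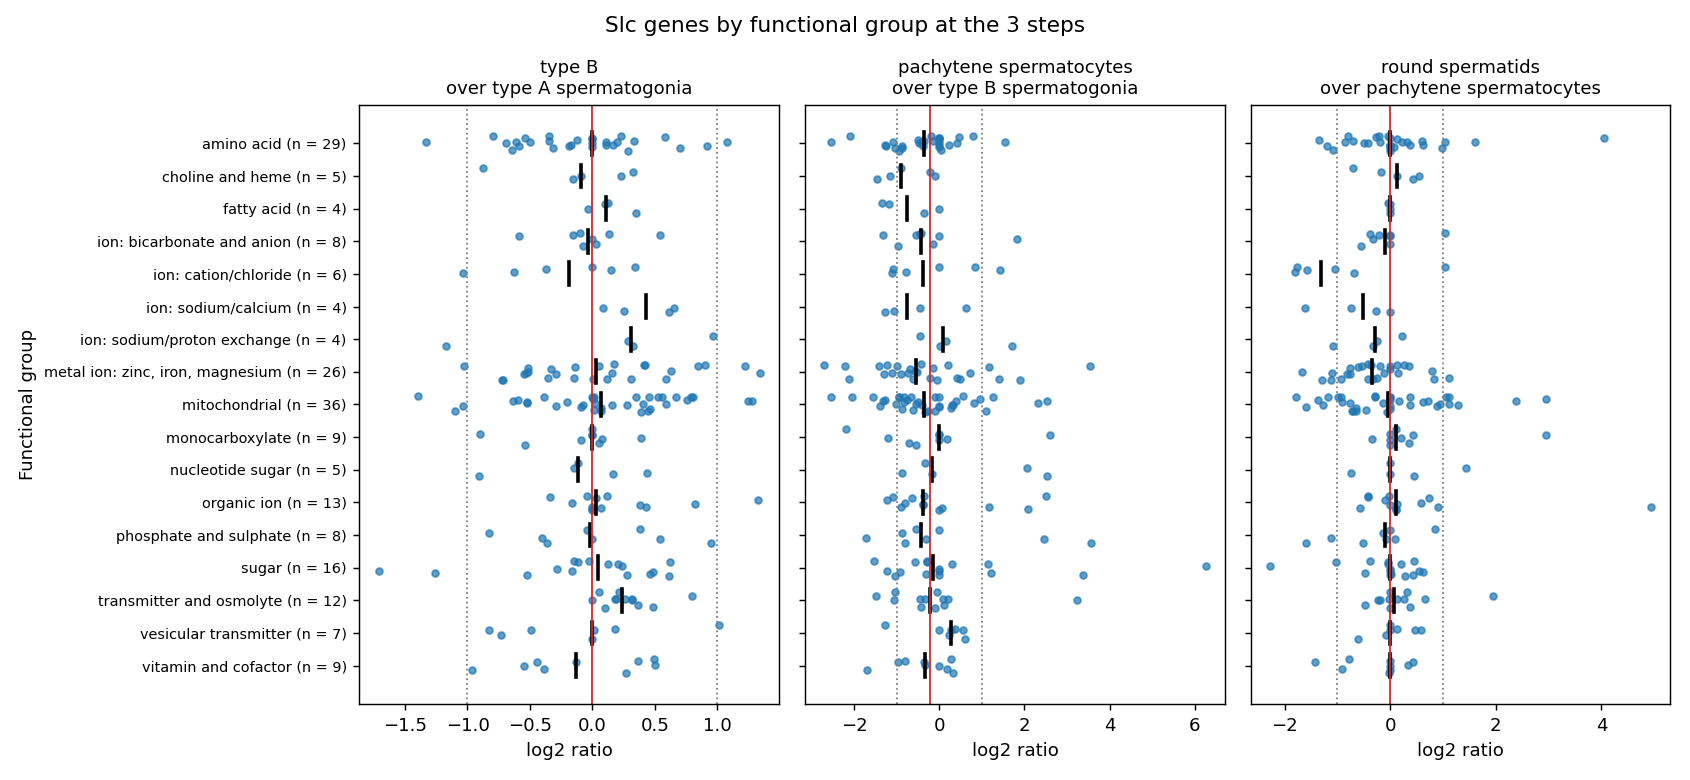
Log2 ratio of each measured Slc gene (points) at the 3 steps, by functional group, for groups with at least 4 measured genes; black bars are group medians, the red line is the median of all measured genes and dotted lines mark 2-fold. The cation and chloride group has its median at -1.31 in round spermatids over pachytene cells, and single points stand far to the right in the sugar group (Slc2a3) at the pachytene step and in the organic ion group (Slc22a14) at the spermatid step.

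Of the bicarbonate and anion exchangers, Slc4a2 and Slc4a3 read lowest in round spermatids. Slc4a2, an exchanger of chloride for bicarbonate, read 347 in type A, 329.9 in type B, 169 in pachytene cells and 115 in round spermatids, and Slc4a3 read 161 in type A, 145 in type B, 57.7 in pachytene cells and 38.9 in round spermatids, 2.51-fold lower in pachytene cells. Slc4a8, a sodium-driven exchanger, was over the floor in the later cells alone, reading 13.7 in type A, 23 in type B, 176 in pachytene cells and 140.0 in round spermatids, at least 3.52-fold higher in pachytene cells, whereas its U74Cv2 probe set read 82.5 in type A, 71.3 in type B, 60.1 in pachytene cells and 102 in round spermatids. Slc4a1, the band 3 protein of red cells, read 152 in type A, 142 in type B, 106 in pachytene cells and 217 in round spermatids and was 2.04-fold higher in round spermatids. Summed erythroid markers were 351 in type A, 877 in type B, 161 in pachytene cells and 116 in round spermatids, from the 2 of 4 that are on the arrays. Their part in the Slc4a1 signals was not tested. Slc9a5, an exchanger of sodium for protons, read 127 in type A, 56.4 in type B, 184 in pachytene cells and 87 in round spermatids, so it was 2.26-fold lower in type B, 3.26-fold higher in pachytene cells and 2.11-fold lower in round spermatids. Slc9a8 had no 2-fold step, reading 167 in type A, 204 in type B, 229.7 in pachytene cells and 194 in round spermatids. Of the exchangers of sodium for calcium, Slc24a3 was 3.06-fold lower in round spermatids, at 68.2 against 209 in pachytene cells, whereas its U74Cv2 probe set read 68.4 in type A, 98.8 in type B, 46.3 in pachytene cells and 68.5 in round spermatids and was at least 1.37-fold higher there. Slc8a1, the exchanger of heart muscle, was at least 2.41-fold lower in pachytene cells, and Slc24a4 2.07-fold lower. Their relative Slc8a3 read 73.5 in type A, 115 in type B, 83.9 in pachytene cells and 33.9 in round spermatids, and the sodium and proton exchanger Slc9a4 56.7 in type A, 111 in type B, 81.4 in pachytene cells and 94.7 in round spermatids, with no 2-fold step in either.

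Carriers of zinc, iron, magnesium and other metal ions had 26 measured genes of 29. In type B 2 were at least 2-fold higher and 1 lower than in type A, in pachytene cells 4 were higher and 7 lower than in type B (median log2 ratio -0.53, against -0.21 over all genes), and in round spermatids 1 was higher and 4 were lower than in pachytene cells. Over all measured genes 3.60% were higher and 3.62% lower at the type B step. The shares were 16.2% and 21.9% at the pachytene step and 9.07% and 11.8% at the spermatid step. With a common median or spike-in scaling the pachytene median was 0.01 or 0.16, against 0.10 or 0.20 over all genes, with 6 or 7 higher and 3 lower in each.

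Zinc importers of the Slc39 family lay on both sides. In pachytene cells 3 of the 12 measured importers reached 2-fold higher than in type B and 5 reached 2-fold lower. The shares over all measured genes were 16.2% and 21.9%. Slc39a1, an importer of the plasma membrane, read 287 in type A, 516 in type B, 111 in pachytene cells and 97.5 in round spermatids and was 4.63-fold lower in pachytene cells. Slc39a7, which releases zinc from the endoplasmic reticulum and Golgi, read 683 in type A, 466 in type B, 189 in pachytene cells and 111 in round spermatids and was 2.47-fold lower. Slc39a5 read 201 in type A, 468 in type B, 177 in pachytene cells and 227 in round spermatids; it was 2.33-fold higher in type B and 2.65-fold lower in pachytene cells.

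The importers that were higher in pachytene cells were Slc39a6, Slc39a8 and Slc39a3. Slc39a6, on chromosome 18, read 417 in type A, 252 in type B, 934 in pachytene cells and 428 in round spermatids, 3.71-fold higher in pachytene cells and 2.18-fold lower in round spermatids. Slc39a8 was 2.63-fold higher in pachytene cells, and its U74Av2 probe set 3.87-fold higher. Slc39a3 read 478 in type A, 434 in type B, 978 in pachytene cells and 645 in round spermatids, 2.25-fold higher in pachytene cells, with 2.76-fold higher on its U74Av2 probe set. For both of these genes 2 probe sets on different designs were higher. Slc39a10, the closest relative of Slc39a6, was instead highest in round spermatids, at 341 in type A, 308 in type B, 412 in pachytene cells and 891 in round spermatids, 2.16-fold higher there. Slc39a4, an importer of the intestine, was 2.54-fold higher in type B on 1 probe set and 2.41-fold lower on another. Slc39a14, which also carries iron, read 147 in type A, 147 in type B, 95.9 in pachytene cells and 14.3 in round spermatids, at least 1.92-fold lower in round spermatids, and another of its probe sets was at least 1.52-fold higher there.

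The zinc exporters of the Slc30 family had 8 measured members, none of which was 2-fold higher at any step by its main probe set. Slc30a4 read 214 in type A, 265 in type B, 61.1 in pachytene cells and 108 in round spermatids and was 4.34-fold lower in pachytene cells, kept in every alternative. Slc30a2 read 323 in type A, 226 in type B, 159 in pachytene cells and 10.6 in round spermatids and was at least 3.17-fold lower in round spermatids, and Slc30a9 2.14-fold lower there. Slc30a1, the exporter of the plasma membrane, read 210.4 in type A, 147 in type B, 133 in pachytene cells and 78.3 in round spermatids with no 2-fold step, but its U74Av2 probe set read 51.1 in type A, 69.5 in type B, 33 in pachytene cells and 131 in round spermatids and was at least 2.62-fold higher in round spermatids. Slc30a3, known for loading synaptic vesicles, stepped by less than 2-fold and read 428 in type A, 801 in type B, 932 in pachytene cells and 1012 in round spermatids. For iron, the exporter ferroportin (Slc40a1) read 242 in type A, 325 in type B and 42.8 in pachytene cells, and was at least 6.49-fold lower in pachytene cells. Ferroportin is known for high expression in macrophages. The macrophage markers over the floor numbered 3 in type A, 5 in type B, 1 in pachytene cells and 2 in round spermatids. Their part in the Slc40a1 ratio was not tested. The importer Slc11a2 read 210.1 in type A, 128 in type B, 123 in pachytene cells and 32.1 in round spermatids and was at least 2.45-fold lower in round spermatids. For magnesium, Slc41a3 read 102 in type A, 43.7 in type B, 584 in pachytene cells and 405 in round spermatids and was at least 11.7-fold higher in pachytene cells, at least 2-fold in all 8 alternatives, while Slc41a1 had no 2-fold step.

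The organic ion carriers held the gene with the highest ratio of round spermatids to pachytene cells among the Slc genes. Slc22a14, on chromosome 9, whose mouse protein is known as a carrier of riboflavin needed by sperm mitochondria, was under the floor in both spermatogonial types, at 5.20 in type A, and read 113 in pachytene cells and 3478 in round spermatids. It was at least 2.25-fold higher in pachytene cells and 30.9-fold higher in round spermatids, and its log2 ratio at the spermatid step lay between 4.38 and 5.38 in the 8 alternatives. Of the carnitine carriers, Slc22a21 read 96.1 in type A, 93.4 in type B, 529 in pachytene cells and 396 in round spermatids and was 5.67-fold higher in pachytene cells, with 2.79-fold higher on its U74Bv2 probe set and 1.15-fold lower on a U74Cv2 one. Slc22a16, known as a carnitine carrier of testis, read 29.2 in type A, 38.1 in type B, 213 in pachytene cells and 230.3 in round spermatids and was at least 4.25-fold higher in pachytene cells. Slc22a5, the general carnitine carrier, read 101 in type A, 105 in type B, 109 in pachytene cells and 73.5 in round spermatids with no 2-fold step. Slc22a21 and Slc22a16 were high in pachytene cells and round spermatids alike, within 2-fold of each other. Slc22a17, a receptor for lipocalin, was 2.10-fold lower in pachytene cells, and Slc22a18, a relative, read 896 in type A, 914 in type B, 587 in pachytene cells and 981 in round spermatids with no 2-fold step. Slc22a15 was at least 2.51-fold higher in type B, but 2.35-fold lower in pachytene cells.

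Of the carriers of citrate and phosphate, Slc13a5, a citrate carrier of the plasma membrane, read 67.5 in type A, 52.6 in type B, 623 in pachytene cells and 207 in round spermatids, 11.8-fold higher in pachytene cells and 3.01-fold lower in round spermatids, both in all 8 alternatives. The phosphate carrier Slc34a2 read 3.90 in type A, 10.9 in type B, 274 in pachytene cells and 293 in round spermatids and was at least 5.48-fold higher in pachytene cells. The widespread phosphate carriers Slc20a1 and Slc20a2 were lower in the later cells instead, the first reading 391 in type A, 219.6 in type B, 119 in pachytene cells and 109 in round spermatids and the second 469 in type A, 355 in type B, 109 in pachytene cells and 36.5 in round spermatids. Slc20a2 was 3.27-fold lower in pachytene cells and at least 2.17-fold lower in round spermatids. Of 8 measured members of this group 2 were higher and 1 was lower in pachytene cells (16.2% and 21.9% of all measured genes were). In round spermatids 0 were higher and 2 lower (9.07% and 11.8% of all measured genes were).

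Among the carriers of nucleotide sugars into the Golgi, 2 of 5 were higher in pachytene cells and 1 of these also in round spermatids. The shares of higher genes over all measured genes were 16.2% and 9.07% at these steps. Slc35a3, the carrier of UDP-N-acetylglucosamine, read 155 in type A, 82.5 in type B, 475 in pachytene cells and 648 in round spermatids, 5.76-fold higher in pachytene cells, and Slc35a5 read 63.4 in type A, 57.1 in type B, 237 in pachytene cells and 646 in round spermatids, 4.16-fold higher there and 2.72-fold higher in round spermatids. Both were read from probe sets whose ending marks possible cross-hybridisation. Slc35a4 read 178 in type A, 241 in type B, 131 in pachytene cells and 78.6 in round spermatids with no 2-fold step. The U74Bv2 probe set of Slc35a3 was at least 1.90-fold lower in pachytene cells, and that of Slc35a5 was at least 2.01-fold higher in pachytene cells and at least 2.01-fold lower in round spermatids.

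Carriers of transmitters and osmolytes included Slc6a16, an orphan of the family, which read 22 in type A, 11.5 in type B, 473 in pachytene cells and 403 in round spermatids and was at least 9.46-fold higher in pachytene cells. The taurine carrier Slc6a6 was low in pachytene cells alone, reading 119 in type A, 206 in type B, 73.4 in pachytene cells and 282 in round spermatids, 2.80-fold lower there and 3.84-fold higher in round spermatids. The creatine carrier Slc6a8, on chromosome X, was 2.04-fold lower in pachytene cells and came under 2-fold in 5 of 9 alternatives. Slc6a17, a neutral amino acid carrier of synaptic vesicles, was 2.08-fold lower there, and Slc6a20b read 49.7 in type A, 60.01 in type B, 69.1 in pachytene cells and 109 in round spermatids. Of 12 measured members 1 was higher and 3 were lower in pachytene cells (16.2% and 21.9% of all measured genes were).

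Of 9 measured vitamin carriers none was 2-fold higher at any of the 3 steps, 1 was lower in pachytene cells and 1 in round spermatids. Over all measured genes 3.60%, 16.2% and 9.07% were higher at the 3 steps. The shares of lower genes were 21.9% at the pachytene step and 11.8% at the spermatid step. The riboflavin carrier Slc52a3 read 1719 in type A, 1265 in type B, 995 in pachytene cells and 370.4 in round spermatids and was 2.69-fold lower in round spermatids, with at least 2.04-fold lower on its U74Cv2 probe set. The vitamin C carrier Slc23a2 read 316 in type A, 162 in type B, 39.2 in pachytene cells and 48.9 in round spermatids and was at least 3.23-fold lower in pachytene cells. The thiamine carrier Slc19a2 read 917 in type A, 702 in type B, 801 in pachytene cells and 425 in round spermatids with no 2-fold step, nor had Slc5a6, a carrier of biotin and pantothenate, at 356 in type A, 324 in type B, 165 in pachytene cells and 223 in round spermatids. Of the fatty acid carriers, Slc27a1 read 736 in type A, 801 in type B, 316 in pachytene cells and 307 in round spermatids and was 2.54-fold lower in pachytene cells, and Slc27a4 was at least 2.25-fold lower. Of the choline carriers, Slc44a2 read 278 in type A, 152 in type B, 81.3 in pachytene cells and 23.8 in round spermatids. Slc44a1 was 2.21-fold lower in pachytene cells than in type B. Its 4 probe sets over the floor differed in which spermatogonial type was higher. Their log2 ratios of type B over type A ran from -0.09 to 0.75. Slc44a4 read 169 in type A, 212 in type B, 184 in pachytene cells and 164 in round spermatids, and Slc49a4 was 2.76-fold lower in pachytene cells, at 105 against 289 in type B. The lysosomal carrier Slc15a4, which moves histidine and peptides, was highest in pachytene cells, at 149 in type A, 137 in type B, 442 in pachytene cells and 135 in round spermatids, 3.23-fold higher there and 3.27-fold lower in round spermatids. The urea carrier Slc14a2, on chromosome 18, read 184 in type A, 99.5 in type B, 284 in pachytene cells and 496 in round spermatids and was 2.85-fold higher in pachytene cells.

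Of 7 measured members of the vesicular transmitter and related families 1 reached 2-fold higher in type B and 1 reached 2-fold lower in pachytene cells. The shares over all measured genes were 3.60% and 21.9%. Both were Slc17a1, a phosphate and anion carrier known from kidney, which read 60.1 in type A, 122 in type B, 18.9 in pachytene cells and 39.7 in round spermatids. Slc17a3 read 224 in type A, 159 in type B, 192 in pachytene cells and 288 in round spermatids, the vesicular glutamate carrier Slc17a6 98.6 in type A, 99.5 in type B, 147 in pachytene cells and 203 in round spermatids and the vesicular monoamine carrier Slc18a1 89.5 in type A, 101 in type B, 131 in pachytene cells and 143 in round spermatids. These 3 had no 2-fold step. The nucleoside carrier Slc28a1 read 146 in type A, 291 in type B, 309 in pachytene cells and 263 in round spermatids, just under 2-fold higher in type B. Slc10a7, named with the bile acid carriers, was 2.01-fold lower in type B, at 66.8 against 134 in type A on its main probe set, while another probe set was near or under the floor. The monocarboxylate family member Slc16a13 read 106 in type A, 72.7 in type B, 23.4 in pachytene cells and 11.8 in round spermatids, and Slc43a2, a carrier of large neutral amino acids, 255 in type A, 275 in type B, 325 in pachytene cells and 422 in round spermatids.

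Among the 5 genes that share the name without being carriers, only Slc9a3r1 had a 2-fold step. It encodes a scaffold that anchors membrane proteins to the cytoskeleton and read 169 in type A, 50.7 in type B, 94.3 in pachytene cells and 315 in round spermatids, which made it 3.32-fold lower in type B and 3.34-fold higher in round spermatids. The lysosomal carrier Slc66a1 read 146 in type A, 53.3 in type B, 18.6 in pachytene cells and 129 in round spermatids, 2.74-fold lower in type B and at least 2.59-fold higher in round spermatids, and its relative Slc66a2 was 3.08-fold higher there.

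Genes that work with these carriers were followed from a list of 24, of which 20 were on the arrays and measured. In type B 1 was at least 2-fold higher than in type A (3.60% of all measured genes were). In pachytene cells 2 were higher and 4 lower than in type B (16.2% and 21.9% of all measured genes were). In round spermatids 3 were higher and 4 lower than in pachytene cells (9.07% and 11.8% of all measured genes were). Of the hexokinases, which trap glucose in the cell, Hk1 read 1079 in type A, 2290.0 in type B, 516 in pachytene cells and 278 in round spermatids, 2.12-fold higher in type B and 4.44-fold lower in pachytene cells, and Hk2 was 3.23-fold lower in pachytene cells and at least 2.03-fold lower in round spermatids. Mpc1, a subunit of the mitochondrial pyruvate carrier, was 2.66-fold lower in pachytene cells. Of the outer membrane channels that admit metabolites to mitochondria, Vdac2 was 2.12-fold higher in pachytene cells, Vdac3 read 709 in type A, 601 in type B, 1108 in pachytene cells and 1235 in round spermatids with no 2-fold step, and Vdac1 read 62.5 in type A, 88.3 in type B, 47.7 in pachytene cells and 15.9 in round spermatids.

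The sodium pump sets the gradient that many of these carriers use, and 2 of its subunits were highest in round spermatids. Atp1a4, the catalytic subunit known from sperm, read 478 in type A, 498 in type B, 588 in pachytene cells and 3959 in round spermatids and was 6.73-fold higher in round spermatids, and Atp1b3 read 1242 in type A, 1081 in type B, 1058 in pachytene cells and 4684 in round spermatids and was 4.43-fold higher. Atp1b2 ran the other way, at 2433 in type A, 1705 in type B, 450.2 in pachytene cells and 330.2 in round spermatids, 3.79-fold lower in pachytene cells. The subunit gene Atp1b1 was also lowest in round spermatids, with no 2-fold step. It read 85.9 in type A, 147 in type B, 89.8 in pachytene cells and 66.9 in round spermatids. Of the channels for water and glycerol, Aqp7 read 16.7 in type A, 8.60 in type B, 72.8 in pachytene cells and 1311 in round spermatids, 18-fold higher in round spermatids, and Aqp9 read 5.10 in type A, 4.40 in type B, 409.7 in pachytene cells and 124 in round spermatids, at least 8.19-fold higher in pachytene cells and 3.30-fold lower in round spermatids. Aqp8 was at least 2.005-fold lower in round spermatids and the calcium pump gene Atp2b4 2.39-fold lower. The partners Ppif, Gk2, Atp2a2 and Atp2b1 had no 2-fold step.

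Genes of the X chromosome are known to be silenced during the pachytene stage. Of 8 measured X-linked Slc genes 4 were at least 2-fold lower in pachytene cells than in type B (49.7% of all 394 measured X-linked genes were) and 0 were higher, with a median log2 ratio of -0.93 (-0.99 over all X-linked genes). Of 213 autosomal Slc genes 42 were lower (19.7%, against 21.1% of 12551 autosomal genes) and 27 higher, with a median of -0.28 (-0.20 over all autosomal genes). The 4 lower X-linked genes were Slc25a53, Slc38a5, Slc10a3 and Slc6a8. In round spermatids 1 of the 8 was at least 2-fold higher than in pachytene cells: Slc10a3 read 129 in type A, 116 in type B, 44.7 in pachytene cells and 124 in round spermatids, at least 2.32-fold lower in pachytene cells and at least 2.47-fold higher in round spermatids. The share of X-linked Slc genes that were lower lay near that of all X-linked genes.

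How far a ratio holds across probe sets could be seen for 70 Slc genes with at least 2 probe sets over the floor. Probe sets of the same gene pointed in opposite directions and differed by over 2-fold in 10 of these at the type B step, 13 at the pachytene step and 16 at the spermatid step. The 10 were Slc7a2, Slc9a3r2, Slc10a7, Slc25a37, Slc30a9, Slc35a3, Slc38a9, Slc39a4, Slc45a4 and Slc49a4. The 13 were Slc2a5, Slc4a8, Slc9a3r2, Slc22a18, Slc22a21, Slc24a3, Slc25a10, Slc25a33, Slc25a53, Slc35a3, Slc38a9, Slc39a4 and Slc39a14. The 16 were Slc1a5, Slc2a5, Slc4a8, Slc12a5, Slc12a7, Slc24a3, Slc25a12, Slc25a33, Slc25a36, Slc30a1, Slc35a5, Slc38a9, Slc39a14, Slc43a2, Slc45a4 and Slc49a4. Of the called genes with other probe sets, a second probe set was at least 2-fold the same way in 0 of 6 at the type B step, 10 of 25 at the pachytene step and 5 of 20 at the spermatid step. Different probe sets of Slc39a4 at the type B step, Slc2a5 at the pachytene step and Slc35a5 at the spermatid step were at least 2-fold in both directions. In 27 of the 221 measured Slc genes the main probe set had an ending that marks possible cross-hybridisation. Where both signals of a ratio were over the floor, the smaller one was still below the top negative control of that array in 2 of 5 higher and 2 of 5 lower genes in type B, in 6 of 18 and 4 of 32 in pachytene cells, and in 0 of 15 and 1 of 19 in round spermatids. At the pachytene step the 6 included Slc13a5, Slc35a3 and Slc35a5, so their sizes are less certain than those of ratios whose signals were both above it.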

How the data were processed

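Each of 12 arrays held RNA of 1 of 4 cell types, per the labels. The authors deposited linear intensity values, 1 for each probe set. The submitters' processing notes name MAS5 as the tool; its version and settings are not given in the sources used here, and the values have 2% trimmed means between 125.0 and 125.1. From these, arrays were scaled within a design to the geometric mean of those trimmed means, values under 0.4 of it were set to that floor (50.01 to 50.03), and log2 was taken. Ratios were formed within a design, since designs were scaled separately. Array medians lay between 42.7 and 75.9.

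Gene names came from the platform annotation (36701 probe sets: 29131 with 1 symbol, 724 with several, 6846 with none), updated through Entrez identifiers to RefSeq GRCm38.p6 (29044 matched), in which the 284 Slc symbols were the same. The members, groups and lists were chosen with earlier results of these data known. Named were Slc2a3, Slc25a4, Slc25a5 and their paralogues, the 8 genes of largest ratio in each direction at each step and the 4 of widest span in each functional group, both among genes of at least 2 floors, the 4 standing most over the next cell type in each type, genes whose probe sets disagreed by over 2-fold, and the partner list. Other Slc genes named, namely Slc3a2, Slc7a5, Slc7a1, Slc36a1, Slc36a4, Slc25a20, Slc25a25, Slc25a21, Slc25a42, Slc25a47, Slc16a1, Slc16a3, Slc22a5, Slc39a3, Slc39a6, Slc39a8, Slc39a10, Slc30a3, Slc11a2, Slc41a1, Slc12a8, Slc10a3, Slc38a5, Slc6a8 and Slc14a2, were chosen after their values were seen. The family Slc66 was put among other carriers, and Slc2a4rg-ps among genes that are not transporters, after the values were seen. Counting was tested on simulated data. Python 3.11.15, NumPy 2.4.6, pandas 2.3.3 and SciPy 1.17.1 were used.

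Alternatives were other floors, scalings (common median, spike-in controls, quantile), the mean over probe sets, no probe sets of special ending, U74Av2 alone and a 4-fold threshold. With 1 array per group there was no test, and precision rests on these few arrays.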

Additional observations from a re-analysis of the deposited data

How the results depend on the processing

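No paired analysis was possible because each cell type has 1 array per design and no test was run; for the same reason no replicate could be left out. Of the 137 Slc ratios of at least 2-fold, recomputed under up to 9 alternatives (1162 values), 781 values moved by less than the technical spread, 374 by more (191 of them still at least 2-fold) and 7 changed sign, and 218 came under 2-fold. Those that changed sign were, without probe sets of special ending, Slc25a53 (0.042) and Slc38a9 (-0.002) at the pachytene step and Slc35a5 (-1.01) and Slc38a9 (-0.89) at the spermatid step, and with U74Av2 alone Slc7a2 (0.40) at the type B step, Slc25a53 (0.042) at the pachytene step and Slc12a5 (0.078) at the spermatid step, all log2 ratios. At least 2-fold in every alternative were 0 of 7 higher and 1 of 12 lower genes in type B, 16 of 27 and 7 of 46 in pachytene cells, and 8 of 21 and 7 of 24 in round spermatids.

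Counts of Slc genes at least 2-fold changed by over 1.5 times as follows. With the floor at 0.2 of the trimmed mean, 15 were higher and 21 lower in type B than in type A, and 11 stood over each other cell type in type A. With the floor at 0.8, 3 were higher and 1 lower in type B, 22 lower in pachytene cells and 12 lower in round spermatids, and 1 stood over each other type in type A and 1 in type B. With a floor of 1 unit, 25 were higher and 34 lower in type B, 82 lower in pachytene cells, and 38 higher and 54 lower in round spermatids, with 18 over each other type in type A and 6 in type B. With a common median, 4 were higher in type B, 15 lower in pachytene cells (median log2 ratio 0.000), and 0 stood over each other type in type B. With spike-in scaling, 0 were higher and 61 lower in type B (median -0.62), 43 higher and 12 lower in pachytene cells (median 0.031), with 33 over each other type in type A and 0 in type B. The spike-in controls themselves read 1.76-fold in type B over type A and 0.61-fold in pachytene cells over type B. With quantile normalization, 29 were lower in pachytene cells and 2 stood over each other type in type A. With U74Av2 alone 99 Slc genes were measured, against 221 in the main processing. On it 1 was higher and 2 lower in type B, 12 and 20 in pachytene cells, and 8 and 11 in round spermatids. Over each other type stood 1 in type A, 0 in type B and 3 in round spermatids. At 4-fold the counts were 0 and 0, 13 and 9, and 5 and 1, and over each other type 0 in type A, 0 in type B, 1 in pachytene cells and 4 in round spermatids. For the floors, the scalings and U74Av2 alone the cause was not tested. Signals near the floor are limited by background, which reached 103.5 in negative controls, so ratios of low genes are the least precise.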
